A study of Arabidopsis thaliana with 32 samples.

Results

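Root transcripts of Sku6 seedlings were compared with those of wild-type Col-0 seedlings after 4 days of growth in spaceflight. The comparison holds all 393 loci that the authors listed for these groups at a q-value of at most 0.05, of 4802 loci listed in any of the 12 comparisons of the series. No further selection was made. Sku6 is an Arabidopsis thaliana line with a sku6 allele of SPIRAL1 (SPR1), and Col-0 is the accession used as the wild type. The labels do not give the lesion, the number of backcrosses or the parent of the line, so differences between the genotypes outside SPR1 cannot be told apart from the effect of the allele.

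Both groups germinated on upright gel plates in the Veggie unit aboard the International Space Station, lit with 100 to 135 µmol per square metre and second, and were fixed in RNAlater at 4 days. Roots were cut from the fixed seedlings, and each of the 4 samples per group pooled 5 to 8 roots. Other groups of the series were Sku6 and Col-0 roots of 8 days in flight, and of 4 and 8 days on the ground, where the ground set ran 48 h behind the flight set. In all there were 32 samples in 8 groups.

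SPIRAL1 is a small protein that binds microtubules, the filaments that guide the laying down of cellulose in plant cell walls. Roots that lack it grow with a handed twist and slant to one side on tilted plates. The series asks how this skewing mutant and the wild type differ in the genes they use, in flight and on the ground.

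Every level below is the authors' value for a whole group in FPKM, a fragment count corrected for the length of the transcript and the size of the library. Values of single samples were not in hand, so no spread between replicates is given, the depth is unknown, and each call is the authors' own, made across all the loci they tested. Fold changes and log2 values are Sku6 over Col-0, computed here from both group values. In pooled roots, fewer cells of a type and less RNA per cell cannot be told apart. The libraries came from a kit that does not mark strand, so overlapping and antisense genes share reads. A locus that is not listed is not thereby shown to be equal in both genotypes.

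Of about 19464 loci tested, a number inferred from the ranks of the p- and q-values, the 393 listed loci make 2.02%. Of these, 301 were higher in Sku6 (1.55% of those tested) and 92 were lower (0.473%). Higher loci were thus 76.6% of the list. Leaving out values of 0, the median difference was 1.71-fold among the higher loci and 1.55-fold among the lower ones. At least 2-fold differences were found for 97 loci (0.498% of those tested), of which 85 were higher and 12 lower in Sku6. The smallest listed differences were 1.31-fold upward and 1.33-fold downward. In Col-0, 35 of the loci were under 5 FPKM, 191 lay from 5 to under 50 FPKM and 167 reached 50 FPKM or more. Shares below for a gene list or family count all its members, tested or not. The shares beside them are of loci tested.

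**Figure D1:**
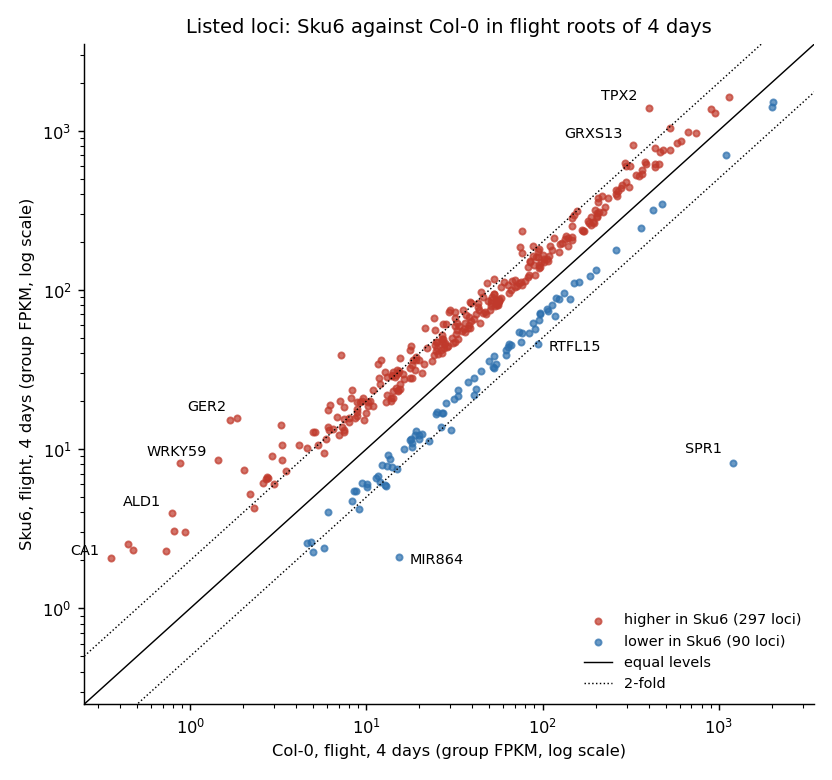
Group FPKM of each listed locus in Col-0 (horizontal, log scale) and Sku6 (vertical, log scale) flight roots of 4 days, with points in red for loci higher and in blue for loci lower in Sku6, and 6 loci with a value of 0 left out. Points above the solid line of equal levels outnumber those below it, and SPR1 lies farthest below that line at 1210.0 FPKM in Col-0 and 8.13 in Sku6.

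SPR1 (AT2G03680; TAIR10.1, chromosome 2, 1120787 to 1122055) was the locus with the strongest difference among those with a value above 0 in both groups. It stood at 1210.0 FPKM in Col-0 and 8.13 FPKM in Sku6, a log2 of -7.22 with q = 0.00499 in the authors' deposited table. The Sku6 level was 0.672% of the Col-0 level. In the other comparisons of the genotypes the log2 of SPR1 was -7.45 on the ground at 4 days, -6.97 in flight at 8 days and -6.78 on the ground at 8 days. The files place this locus at 1100339 to 1133656, a stretch that is wider than the gene.

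Of 30 microtubule genes 2 were listed (6.67%, beside 0.473% of all loci tested that were lower), both lower. The first was SPR1 itself, the gene altered in Sku6, so this share cannot be read as a result about the list. The only other member listed was TUB5, a beta-tubulin gene, at 119 FPKM in Col-0 and 89.3 in Sku6 (q = 0.0495 in the authors' deposited table). Reads of tubulin genes can be shared among near-identical copies. Outside the list, and picked after the values were seen, MAP18, which codes for a protein that destabilises microtubules, was 1.48-fold higher at 124 against 83.3 FPKM. The kinesin-type motor gene AT5G66310 was 1.54-fold lower at 6.15 against 9.48 FPKM. ADF8 and PFN2, which code for the actin-binding proteins actin depolymerizing factor and profilin, were 1.46-fold and 1.36-fold higher.

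Root markers had to be read from the few with an entry. Of 12 such genes, 3 had a level for both groups in any table. PHT1;1, a phosphate transporter gene of roots, was at 195 FPKM in Col-0 and 259.6 in Sku6. WOX5, the gene of the root stem cell niche, was at 25.7 and 28.9 FPKM. NRT2:1, a nitrate transporter gene of roots, was at 2.72 and 6.70 FPKM and was the only one of the 3 that was listed, since PHT1;1 and WOX5 were not called in this comparison and their levels come from other tables of the authors. The other markers, such as SHR, PLT1 and IRT1, had no entry from which both levels could be taken, and none of the 14 seed storage genes was listed in this comparison.

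The highest fold changes belonged to germin-like genes, which code for secreted cupin proteins of the cell wall, several of them known to take part in resistance to pathogens. A run of neighbours on chromosome 5 (TAIR10, 15669898 to 15693581) was listed as 3 loci. AT5G39160 was at 0.872 FPKM in Col-0 and 8.16 in Sku6, 9.35-fold higher. The merged locus of AT5G39150 and AT5G39180 was at 1.68 and 15.2 FPKM. GER2 (AT5G39190) was at 1.85 and 15.6 FPKM, 8.43-fold higher. Each of these genes was therefore low in Col-0 and roughly alike in its fold in Sku6, and each had q of at most 0.0206 in the authors' deposited table.

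The stretches before GER2 and AT5G39160 are shown because these genes are near copies of each other. They are the 250 bases upstream of each annotated start in TAIR10.1, both on the minus strand, at chr5:15693736-15693985 and chr5:15680142-15680391. Capitals mark TTGAC, the core of the W-box bound by WRKY factors, or TGACG, both searched on both strands.
GER2: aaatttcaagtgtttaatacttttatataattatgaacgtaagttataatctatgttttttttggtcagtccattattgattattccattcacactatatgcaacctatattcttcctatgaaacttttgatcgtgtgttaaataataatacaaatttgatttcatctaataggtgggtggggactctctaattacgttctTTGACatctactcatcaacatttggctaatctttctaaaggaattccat
AT5G39160: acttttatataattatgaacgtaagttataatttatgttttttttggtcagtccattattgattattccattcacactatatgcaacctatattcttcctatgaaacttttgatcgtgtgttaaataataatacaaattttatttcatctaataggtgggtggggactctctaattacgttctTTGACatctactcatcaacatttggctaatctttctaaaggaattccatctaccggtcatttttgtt
With GER2 shifted by 18 bases, 230 of the 232 bases in common were identical (99.1%). Both hold TTGAC once. The coding sequences of GER2 and AT5G39160 in TAIR10.1 were identical at 668 of 669 bases, and those of AT5G39150 and AT5G39180 at 665 of 666. Copies this alike can share reads, so how the reads were divided between the members of each pair is uncertain. Elsewhere in the genome GLP4 and GLP5, other germin-like genes, were 1.69-fold and 1.31-fold higher, at 71.0 against 41.9 FPKM and 967 against 739.8 FPKM.

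Genes of salicylate signalling and defence were higher in Sku6. Of the 30 members of this list 7 were listed, all of them higher, or 23.3% of the list against 1.55% of all loci tested in that direction. Their median log2 was 1.54, beside 0.77 over all listed loci that were higher and had values above 0. ALD1, the aminotransferase gene that starts the synthesis of the resistance signal N-hydroxypipecolic acid, was at 0.790 FPKM in Col-0 and 3.95 in Sku6, 5.00-fold higher. DLO1 (AT4G10500), a salicylate hydroxylase gene, was at 2.92 and 9.03 FPKM. NIMIN1, whose product binds the salicylate co-activator NPR1, was at 6.03 and 17.5 FPKM. These genes were low in Col-0, and ALD1 stayed under 5 FPKM in both groups.

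ECS1, linked to resistance to Xanthomonas bacteria, was at 12.1 FPKM in Col-0 and 36.2 in Sku6. WRKY70, a transcription factor gene that acts between salicylate and jasmonate responses, was at 13.1 and 28.3 FPKM. PR4, a pathogenesis-related protein gene, was the most abundant of the list at 312 and 603 FPKM, 1.93-fold higher. DMR6, another salicylate hydroxylase gene, was 1.76-fold higher. In the authors' deposited table the q-values of these 7 genes ran from 0.00499 to 0.0122. None of the 29 jasmonate genes was listed, and ORA59, an ethylene and jasmonate response factor gene outside that list, was 1.70-fold higher close to the threshold.

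**Figure D2:**
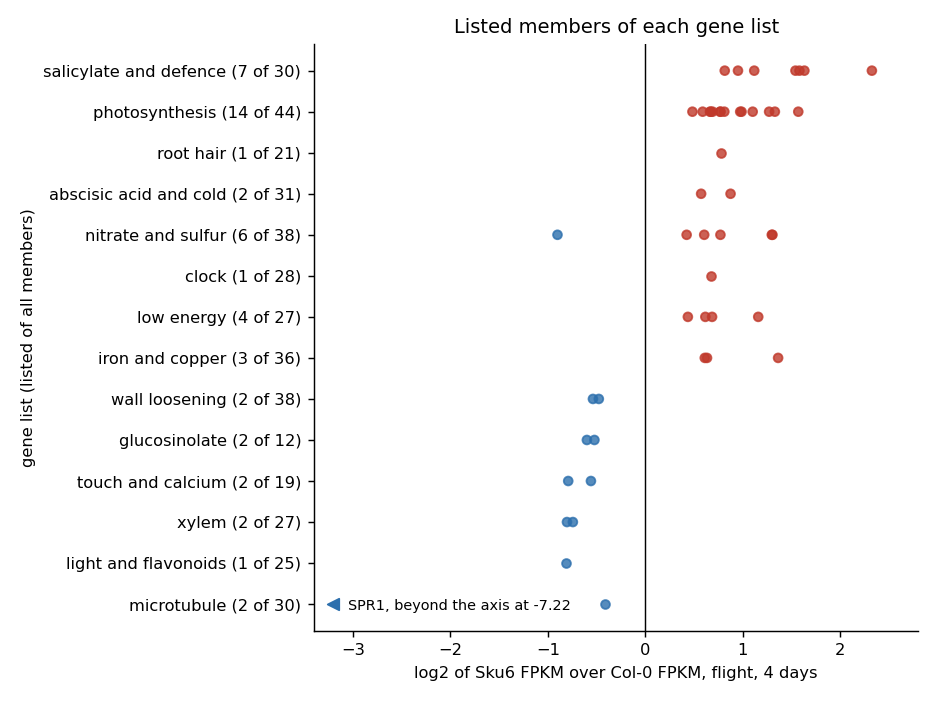
The log2 of Sku6 FPKM over Col-0 FPKM (horizontal) for each listed member of each gene list (vertical, with the number listed of all members), red where higher and blue where lower in Sku6, with SPR1 drawn as an arrow at the axis edge because its -7.22 lies beyond it. All 7 defence and all 14 photosynthesis members sit right of 0, and the listed members of the wall loosening, glucosinolate, touch and xylem lists sit left of it.

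Further defence and redox genes, grouped after the values were seen, were listed as well, in a list where 76.6% of the loci were higher. Of 72 annotated WRKY factor genes 4 were listed (5.56%, against 2.02% of all loci tested), all higher, with WRKY59 at 8.58 against 1.44 FPKM, WRKY75 at 20.1 against 7.05 and WRKY65 at 116 against 69.9, beside WRKY70. Of 23 chitinase genes, whose products cut the chitin of fungal walls, 4 were listed (17.39%, against 1.55% of all loci tested that were higher). All 4 were higher, from 1.56-fold for AT1G02360 to 2.11-fold for CHI (AT2G43570). OSM34, an osmotin gene, was at 74.6 FPKM in Col-0 and 186 in Sku6. PROPEP2 and PEP7, precursor genes of danger peptides, were 2.14-fold and 1.60-fold higher. The phloem lectin genes PP2-A6, PP2-B2 and PP2-A8 were 3.19-fold, 2.5-fold and 1.91-fold higher.

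The largest absolute rise was in TPX2 (AT1G65970), a thioredoxin-dependent peroxidase gene, not the spindle protein gene of that name. It stood at 401 FPKM in Col-0 and 1396 in Sku6, 3.48-fold higher. TRX5, an h-type thioredoxin gene, was at 529.8 and 1042 FPKM. The other listed h-type thioredoxin gene, TH7, was lower at 34.1 against 54.5 FPKM. GRXS13, a glutaredoxin gene, was at 327 and 815 FPKM. AT1G54410, a dehydrin gene, and SAG21, a stress and senescence gene, were also among the 5 largest rises, at 1636 against 1151 FPKM and 1367 against 908 FPKM. The glutathione transferase genes GSTF14, GSTF7 and GSTF2 were 1.70-fold, 1.47-fold and 1.46-fold higher. Of 62 genes grouped as peroxidases by their annotation 5 were listed (8.06%, against 2.02% of all loci tested). Of these, 4 were higher, namely AT5G64110, AT5G19890, AT5G64100 and DOX1 (AT3G01420), which is in the group by annotation only. AT2G18980 was lower at 73.6 against 108 FPKM.

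The remaining loci among the 12 highest folds that reached 5 FPKM had little or no described function. AT4G10860 was 5.46-fold higher at 39.2 against 7.18 FPKM. AT5G42530 was 4.35-fold higher at 14.2 against 3.26 FPKM. AT5G02090 was at 236 against 76.3 FPKM. AT2G30670, an oxidoreductase-type gene, and AT1G22890 were 3.63-fold and 3.04-fold higher. The annotation calls 6616 genes uncharacterized, and 41 listed loci hold one, or 0.620%. That share is of annotated genes, tested or not, so it cannot be set against the 2.02% of loci tested. Of these 41, 39 were higher in Sku6, beside 76.6% of all listed loci.

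Stretches before 3 of the defence genes were read because these genes were higher in every comparison of the genotypes (below). Of the 250 bases upstream of ALD1, NIMIN1 and DLO1 in TAIR10.1, those of DLO1 (chr4:6490767-6491016, plus strand) hold both motifs, while TTGAC and TGACG are not in the windows of the other 2. Capitals mark TTGAC or TGACG, whose 2 strands overlap in the run of 8.
DLO1: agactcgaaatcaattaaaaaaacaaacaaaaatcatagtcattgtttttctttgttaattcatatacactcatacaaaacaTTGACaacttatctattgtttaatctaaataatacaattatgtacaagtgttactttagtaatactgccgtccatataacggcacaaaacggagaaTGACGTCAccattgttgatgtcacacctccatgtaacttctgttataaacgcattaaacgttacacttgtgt
Over 27444 promoters of protein-coding genes of the same length, 44.9% hold TTGAC and 18.6% hold TGACG on either strand. Among listed single genes TTGAC was in 148 of 275 promoters (53.8%) of those higher and in 36 of 84 (42.9%) of those lower in Sku6. TGACG was in 20.7% and 13.1% of them. Of the promoters of the 7 listed defence genes, 2 hold TTGAC and 2 hold TGACG. These are matches of letters and not binding sites.

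Photosynthesis genes, which also mark green shoot tissue, formed the largest group. Of 44 members 14 were listed, all higher in Sku6, or 31.8% of the list against 1.55% of all loci tested in that direction. Their median log2 was 0.79, close to the 0.77 over all listed higher loci, with a range from 0.48 to 1.57. Summed over these 14 genes the level was 761 FPKM in Col-0 and 1287 FPKM in Sku6. Small subunit genes of Rubisco, the carbon-fixing enzyme, led them. RBCS2B was at 11.6 FPKM in Col-0 and 34.4 in Sku6, RBCS3B at 30.0 and 75.2, and RBCS1B at 15.6 and 37.5. These 3 genes are neighbours on chromosome 5, with coding sequences 96.7% to 97.3% identical, so their reads may be divided unevenly. RBCS1A, at another place in the genome, was at 199.6 and 316 FPKM.

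GAPB and FBA2, Calvin cycle enzyme genes, were 2.14-fold and 1.75-fold higher. The photosystem genes PSBQ-2, PSAK and PSAD-1 were 1.98-fold, 1.96-fold and 1.59-fold higher. The light-harvesting genes LHCA2, LHCA3, LHCA4 and CAB1 lay between 1.5-fold and 1.71-fold higher. PSBX had the smallest rise, 1.4-fold. Levels for both groups could be taken from other tables for 5 members that were not called here, 4 of them with the Sku6 value above that of Col-0. LHCB2.1 was at 6.81 FPKM in Col-0 and 5.83 in Sku6, LHCB2.2 at 3.06 and 3.38, and LHCB1.5 at 92.6 and 109 FPKM. PSBY was at 12.9 and 19.9 FPKM and RCA, the gene of Rubisco activase, at 27.9 and 36.3. The other 25 members had no entry from which both levels could be taken. Outside the list, GDCH and GOX1 of photorespiration, the Calvin cycle regulators CP12-1 and CP12-3, and the carbonic anhydrase genes CA1 and CA2 were higher too. CA1 and CA2 were low in both groups, at 2.06 against 0.353 and 2.52 against 0.443 FPKM. ELIP1, an early light-induced gene, went the other way at 10.3 against 18.1 FPKM.

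The differences between the genotype comparisons were not tested, and the counts stand side by side. None of the 44 was listed on the ground at 4 days or in flight at 8 days. On the ground at 8 days 10 were listed, all lower in Sku6, and 7 of the 14 described above were among these. CAB1, for example, was at 168 FPKM in Col-0 and 84.7 in Sku6 on the ground at 8 days, against 94.4 and 161 in flight at 4 days. RBCS1A was at 222 and 123 FPKM there. Roots were cut by hand from fixed seedlings, and the part that green tissue left on the roots had in these values was not tested.

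**Figure D3:**
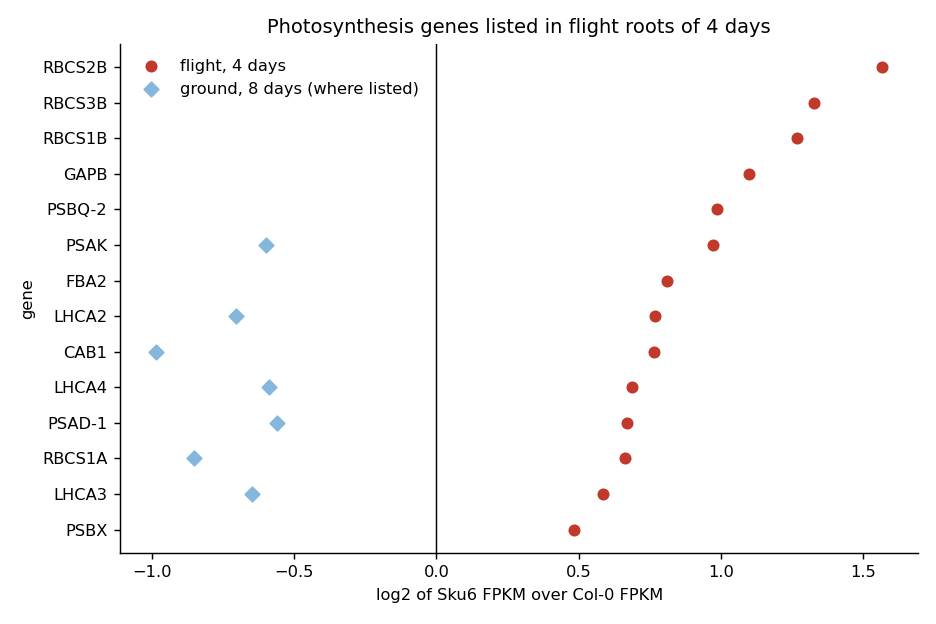
The log2 of Sku6 FPKM over Col-0 FPKM (horizontal) for the 14 photosynthesis genes (vertical) in flight roots of 4 days (red circles) and, for the 7 also listed there, in ground roots of 8 days (blue diamonds). All red circles lie right of 0, from 0.48 to 1.57, and all blue diamonds lie left of 0.

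Nutrient genes formed a smaller group. Of 38 nitrate and sulfur genes 6 were listed, 5 higher and 1 lower, or 15.8% against 2.02% of all loci tested. NRT2:1, the high-affinity nitrate transporter gene, was 2.47-fold higher, and WR3 (AT5G50200), the gene of its partner protein, was at 114 against 66.9 FPKM. BT1, which codes for a BTB/TAZ scaffold protein of nitrate responses, was at 29.5 FPKM in Col-0 and 72.4 in Sku6. HRS1, a regulator gene of phosphate and nitrate signals in the root tip, was 1.52-fold higher and LBD38, a nitrate-induced repressor gene, 1.34-fold higher. APR1, a key enzyme gene of sulfate assimilation, was lower at 21.8 against 40.7 FPKM.

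Of 36 iron and copper genes 3 were listed (8.33%, against 1.55% of all loci tested that were higher), all higher. FRU (AT2G28160, also called FIT), the main regulator gene of iron uptake, was at 28.6 FPKM in Col-0 and 43.6 in Sku6. BHLH100, an iron deficiency response gene, was at 4.16 and 10.7 FPKM, and the copper transporter gene COPT2 at 341 and 529 FPKM. Of 27 low-energy genes 4 were listed (14.8%, beside the same 1.55%), all higher. BT2 was at 76.8 and 171 FPKM, TPS10, of the trehalose phosphate synthase family, was 1.61-fold higher, OXS3 1.53-fold and the glutamate dehydrogenase gene GDH2 1.35-fold. ATG8 genes, which code for the tag of autophagy membranes, were grouped after the values were seen. Of 9 such genes 3 were listed, all higher (33.3%, beside the same 1.55%). ATG8E was at 391 against 217 FPKM and ATG8B at 103 against 69.7 FPKM, and ATG8H was within a merged locus.

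Single members of further lists were higher. LRL3, a transcription factor gene of root hair growth, was 1.71-fold higher. It was the only one of 21 root hair genes listed (4.76%, beside 1.55% of all loci tested that were higher). Of 31 abscisic acid and cold genes 2 were listed (6.45%), HB-7 at 1.83-fold and KIN1 at 1.49-fold higher. Of 28 clock genes only RVE2 was listed (3.57%), 1.59-fold higher. No member was listed of the heat shock, hypoxia, jasmonate, auxin, seed, cell cycle, endodermis and suberin, phosphate or triterpene lists. A list whose members are not listed shows only that no call was made at this q-value.

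Cell wall genes were among the lower loci. Of 38 wall-loosening genes 2 were listed (5.26%), both lower, beside 0.473% of all loci tested that were lower. They were EXPA15 and XTH16, an expansin gene and a xyloglucan-modifying enzyme gene. EXPA15 was at 133 FPKM in Col-0 and 95.2 in Sku6, and XTH16 at 44.8 and 30.9. Of 27 xylem and secondary wall genes 2 were listed (7.41%, beside the same 0.473%), both lower. FLA12, a fasciclin-type wall protein gene, was 1.75-fold lower and IRX12 (AT2G38080), a lignin laccase gene, 1.67-fold lower. Outside the lists, the extensin genes EXT12 and AT5G06630 were at 87.0 against 143 and 38.9 against 61.7 FPKM, and PG2 (AT1G70370) was 1.52-fold lower. Of 411 annotated genes of leucine-rich repeat proteins, grouped after the values were seen, 5 were listed (1.22%, beside the same 0.473%). As with the lists, these genes were counted whether tested or not, so both shares have unlike bases. These 5 were lower, from 1.54-fold for the receptor-like kinase gene AT5G56040 to 2.15-fold for AT3G24480.

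Glucosinolates are sulfur-rich defence compounds of the cabbage family. Of 12 genes on that list 2 were listed (16.7%), both lower, beside 0.473% of all loci tested that were lower. CYP79B3, an enzyme gene of the tryptophan branch, was at 53.3 against 76.5 FPKM and the beta-glucosidase gene BGLU21 at 123 against 186 FPKM. In a list of 17 genes of the methionine branch, drawn up after the values were seen, 3 were listed (17.65%, beside the same 0.473%). All 3 were lower. These were BCAT4, which starts chain elongation, BAT5, which carries intermediates into plastids, and IPMI1, an isomerase subunit gene, at 1.44-fold, 1.47-fold and 1.51-fold lower. On the ground at 4 days 6 of the 17 were listed (35.3%), again all lower, and at 8 days none was listed. Of 19 touch and calcium genes 2 were listed (10.5%, beside the same 0.473%), both lower. TCH2, a calmodulin-like gene, was at 64.9 against 95.6 FPKM and STZ, a zinc finger repressor gene, at 11.5 against 19.9 FPKM. Of 33 genes of NPH3-type proteins, a family of phototropism grouped after the values were seen, 3 were listed (9.09%, beside the same 0.473%), all lower. NPY2 was at 5.42 against 8.46 FPKM and AT1G30440 at 7.81 against 13.1 FPKM. The merged locus of AT3G08660 and AT3G08670 was at 12.5 against 20.6 FPKM.

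After SPR1 the lowest fold at 5 FPKM or more was that of MIR864, the precursor gene of a microRNA pair (TAIR10.1, chromosome 1, 6740500 to 6740591). It stood at 15.3 FPKM in Col-0 and 2.1 in Sku6, 7.30-fold lower, with q = 0.00499 in the authors' deposited table. The files give this locus as 6740382 to 6741047, and FPKM here counts the precursor transcript and not the mature microRNA. MIR163, another precursor gene, was 1.51-fold higher at 212 against 140.2 FPKM. The mature sequences annotated within both precursors, read from TAIR10.1 at chr1:6740503-6740523, chr1:6740569-6740590 and chr1:24884359-24884382 on the plus strand, are shown with bases 2 to 8 in capitals.
miR864-5p: uCAGGUAUgauugacuucaaa
miR864-3p: uAAAGUCAauaauaccuugaag
miR163: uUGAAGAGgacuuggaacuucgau
Bases 2 to 8 differ among the 3. MIR864 did not keep its direction with age, since in flight at 8 days it was at 2.06 FPKM in Col-0 and 10.6 in Sku6, a log2 of 2.37.

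The next lowest were AT5G18950, a repeat protein gene, at 2.39 against 5.74 FPKM, and the noncoding RNA gene AT3G29644 at 13.3 against 30.2 FPKM. The pseudogene AT3G17110 was 2.21-fold lower. UGT74E2, the gene of an enzyme that adds glucose to the auxin precursor indole-3-butyric acid, was at 4.2 against 9.08 FPKM, and RTFL15, of a family of small growth-restraining peptides, at 45.9 against 94.3 FPKM. GTE7, a bromodomain factor gene, AAP6, an amino acid transporter gene, AT5G23370 and AT4G18670 were 2.01-fold, 1.97-fold, 1.93-fold and 1.92-fold lower. The largest absolute falls after SPR1 were in abundant transcripts of small fold. AT1G56045, a ribosomal protein L41 gene, was at 1400.3 against 2008 FPKM, the noncoding RNA gene AT3G12965 at 1517 against 2036 FPKM, the defensin-like gene AT4G22212 at 708 against 1095 FPKM and CB5-C, a cytochrome b5 gene, at 345 against 474 FPKM.

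A value of 0 in one group was listed for 6 loci, for which no fold is given. Listed at 0 in Col-0 were AT3G05727 (1.54 FPKM in Sku6), the merged locus of AT3G29648 and AT3G29650 (4.67 FPKM), the merged locus of AT3G42900, AT3G42913 and AT3G42927 (2.08 FPKM) and the pseudogene AT3G46186 (1.62 FPKM). All 4 lie on chromosome 3 and were under 5 FPKM in Sku6. Listed at 0 in Sku6 were the noncoding RNA gene AT2G05995, at 3.42 FPKM in Col-0, and a locus without a gene name in the files at 26.3 FPKM. That locus (TAIR10, chromosome 2, 6439960 to 6440750) overlaps the noncoding RNA gene AT2G06305, and it was also listed at 0 in Sku6 on the ground at 4 days and in flight at 8 days. AT2G05995 was also at 0 in Sku6 at 8 days, beside 3.12 FPKM in Col-0 in flight and 3.03 on the ground.

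The other 3 comparisons of Sku6 with Col-0 use other samples and can be set beside this one. They listed 573 loci on the ground at 4 days (2.93% of those tested), 280 in flight at 8 days (1.4%) and 266 on the ground at 8 days (1.34%). With the ground at 4 days 94 loci were shared, 23.9% of the flight list and 16.4% of the ground list, of which 92 had the same direction. With flight at 8 days 93 were shared, 23.7% and 33.2% of the lists, of which 87 had the same direction. With the ground at 8 days 58 were shared, 14.8% and 21.8% of the lists, but only 32 had the same direction and 26 were opposite. Of those 26, 24 were higher in Sku6 in flight at 4 days. The remaining 221 loci (56.2%) were in none of the other 3 lists, which does not show that they differ from them, since the differences between comparisons were not tested.

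All 4 genotype comparisons listed 17 loci, 16 of them in a constant direction. These were SPR1 and AT3G29644 on the lower side and 14 loci on the higher side. ALD1 had log2 values of 2.32 in flight and 2.1 on the ground at 4 days, and 1.69 in flight and 1.42 on the ground at 8 days. NIMIN1 had 1.54, 2.61, 1.61 and 1.65 in the same order, DLO1 1.63, 2.4, 1.48 and 1.65, and GER2 3.07, 2.03, 1.2 and 1.25. PP2-A6 and PP2-A8, GSTF2 and GSTF7, the merged locus of NAC003 and NAC004, AT5G41280, a receptor-like kinase relative, AT5G22270 and AT1G67148 completed the named ones. The other 2 were the merged AT3G42900 locus and a locus without a name in the files on chromosome 1 (5370677 to 5378107), over AT1G15610 to AT1G15630.

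**Figure D4:**
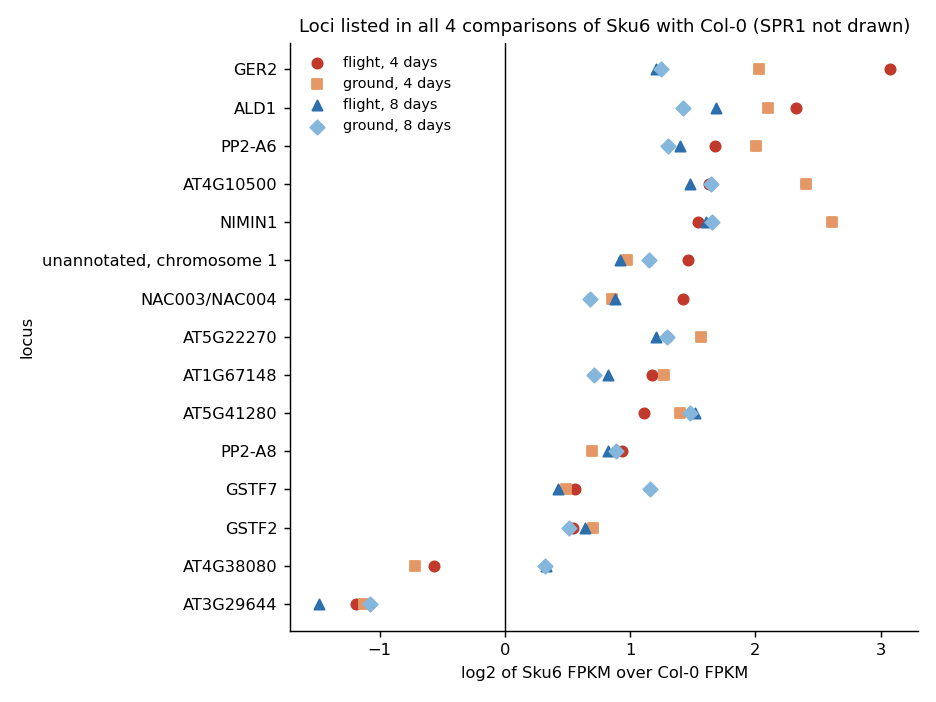
The log2 of Sku6 FPKM over Col-0 FPKM (horizontal) for the loci listed in all 4 genotype comparisons (vertical), with SPR1 and the locus at 0 in Col-0 left out and 1 marker shape per comparison. GER2, ALD1 and NIMIN1 lie above 1 in all 4, AT3G29644 lies below -1 in all 4, and AT4G38080 is lower at 4 days and higher at 8 days.

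The single locus of the 17 that turned was AT4G38080, a hydroxyproline-rich wall protein gene. It was lower in Sku6 at 4 days, at 245 against 363 FPKM in flight and 368 against 607 on the ground. At 8 days it was higher, at 814 against 648 FPKM in flight and 1097 against 877 on the ground. Only 2 of the loci shared with the ground at 4 days were opposite. RTFL15 was 86.2 FPKM in Sku6 against 53.6 in Col-0 there, and AT3G12965 was 2103 against 1638. BT1, COPT2 and ORA59, higher in Sku6 in flight at 4 days, were lower on the ground at 8 days, with log2 values of -0.62, -0.74 and -0.82.

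Levels in ground roots of the same age give the setting of these differences. They share the flight groups with the authors' flight against ground comparisons, so they are given as values only. WRKY70 was at 6.73 FPKM in Col-0 and 5.90 in Sku6 on the ground, beside 13.1 and 28.3 in flight. GRXS13 was at 226 and 248 FPKM on the ground, beside 327 and 815 in flight. BT1 was at 12.3 and 9.38, and BT2 at 15.1 and 13.2, on the ground. For these 4 genes the Sku6 flight group held the highest of the 4 levels at 4 days, and both ground groups lay below both flight groups. GER2 and ALD1 had their highest level in Sku6 on the ground, at 22.2 and 7.65 FPKM, and their lowest in Col-0 in flight.

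**Figure D5:**
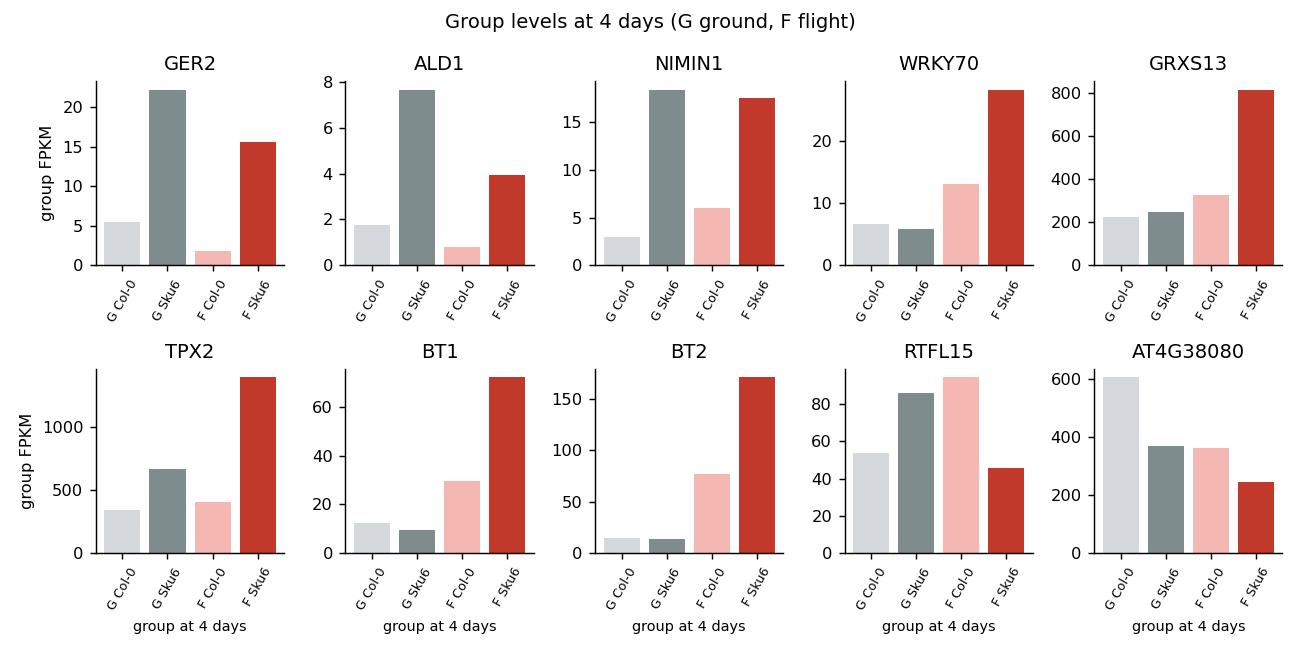
Group FPKM (vertical, from 0, with its own scale per gene) of 10 genes in the 4 groups of 4 days, where G is ground, F is flight and each bar is the authors' value for a group with no spread in hand. WRKY70, GRXS13, TPX2, BT1 and BT2 are highest in Sku6 in flight, GER2, ALD1 and NIMIN1 are highest in Sku6 on the ground, and RTFL15 is highest in Col-0 in flight.

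The listed loci were spread over all chromosomes, with 91 on chromosome 1, 70 on chromosome 2, 67 on chromosome 3, 62 on chromosome 4 and 103 on chromosome 5. Chromosome 5 thus held 26.2% of them, against 22.2% of annotated genes. Within 1 Mb on either side of SPR1 lay 13 listed loci besides SPR1, 18.6% of those on chromosome 2, where 10.1% of the annotated genes of that chromosome lie. CYP71B9, a cytochrome P450 gene, had the highest fold there at 3.02 against 0.936 FPKM. The same window held 12 of 97 chromosome 2 loci on the ground at 4 days, 8 of 54 in flight at 8 days and 7 of 43 on the ground at 8 days. These shares are descriptions, and linkage to the SPR1 allele was not tested.

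Neighbouring listed loci, with at most 10 kb between them, formed 31 runs, of which 22 had 1 direction. The 6 runs of 3 loci included the germin-like and Rubisco genes already described. AT5G64100, AT5G64110 and AT5G64130, the first 2 of them peroxidase genes, were 1.57-fold, 2.37-fold and 1.48-fold higher. The zinc transporter gene ZIP2 and the oxygenase genes AT5G59530 and AT5G59540 were 1.37-fold, 1.84-fold and 1.58-fold higher. On chromosome 1 the unnamed locus at 5370677 was 2.75-fold higher and its neighbours AT1G15640 and AT1G15670, the latter a kelch repeat F-box gene, 1.97-fold and 1.49-fold. The sixth run was mixed, with AT5G37740 1.54-fold higher beside TCH2 and AT5G37790, both lower, the latter a kinase gene 1.55-fold lower.

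The highest q, 0.0495 in the authors' deposited table, was shared by 5 loci. ORA59 at 16.8 against 9.89 FPKM and NAC047 at 19.8 against 12.9 FPKM were higher in Sku6, and AT3G50640 at 79.9 against 113 FPKM was lower, as were TUB5 and XTH16. Values just outside the threshold were not used here, apart from the levels of the uncalled root and photosynthesis markers given above.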

How the data were processed

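Root RNA of 8 groups of 4 samples was sequenced from libraries made with 10 ng of RNA and the SMART-Seq v4 kit, per the labels' protocols. Per the submitters' processing notes, the genome build was TAIR10 and the tools were Cuffdiff and Cufflinks, Picard, STAR 2.5.1b, FastQC 0.11.2 and Trimmomatic 0.36, with no order given. The authors deposited 12 tables of group comparisons with, per the file headers, q-values, p-values, a log2 fold change and an FPKM value for each group. They hold only loci at a q-value of at most 0.05. Depth is unknown, and the level of a group varied up to 1.04-fold from table to table.

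From these, Sku6 over Col-0 was computed from both FPKM values (Python 3.11.15, pandas 2.3.3, numpy 2.4.6) with nothing added, and no test was run. Of the deposited columns, the test statistic was left aside. How many loci were tested was worked back as q times rank over p and taken as the median, a step tested on simulated data. Starts, counted from 0 in the files, were raised by 1. Names, promoters, coding sequences (compared without gaps, at the longest isoform length of both genes) and microRNAs came from TAIR10.1, which matched all 406 gene identifiers. RefSeq protein tables were not used here.

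Of 393 loci, 374 were single genes, 16 merged several genes and 3 had no gene name. AT5G63600 is listed as 2 loci.

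The loci and gene lists were chosen with earlier results of these data known, and 2 lists and the family groupings were added after the values were seen. The genes named were SPR1, the 12 highest and 12 lowest folds of single genes reaching 5 FPKM, the 5 largest FPKM differences each way, values of 0, up to 8 listed members of each list, single genes in all 4 genotype lists, the 2 highest q-values (a tie of 5 loci), and runs of at least 3 loci. Genes outside this rule were picked after their values were seen. Levels on the ground came first from the genotype table and otherwise from the flight against ground table. Alternatives were a q-value of 0.01, at least 5 FPKM, no merged loci, an absolute log2 of at least 1, and 1 or 0.1 FPKM added.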

Additional observations from a re-analysis of the deposited data

How the results depend on the processing

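No paired analysis was possible because the tables give 1 value per group and none per sample, and for the same reason leaving out replicates was not run. With a q-value of at most 0.01, 219 of 393 loci remained, 186 higher and 33 lower in Sku6, and the counts shared in direction were 51 with the ground at 4 days, 46 with flight at 8 days and 12 with the ground at 8 days. Of 49 listed loci in the gene lists, 26 remained at that q-value. With an absolute log2 of at least 1, the same counts were 97 loci, 85 higher, 12 lower, then 26, 14 and 14 shared, and 14 in the lists. The counts moved by at most 1.5 times when loci under 5 FPKM or merged loci were left out, as did the count of 97 at 2-fold when 1 or 0.1 FPKM was added. With 1 FPKM added the log2 of AT5G39160 was 2.29, that of WRKY59 1.97 and that of ALD1 1.47, each over 1.5 times lower in fold, and no listed locus with values above 0 changed direction. Over all such loci 9 lost that much. The deposited log2 column and levels from the flight against ground tables changed no named gene by that much. Depth is unknown, so folds of the 17 loci with a group under 2 FPKM are the least certain.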
